A study of Homo sapiens with 8 samples.

Results

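The zinc finger genes of human chromosome 19 were examined as possible targets of one of their own products, ZNF676. They were taken as the protein-coding genes of chromosome 19, in GENCODE release 44 lifted to GRCh37, whose symbol starts with ZNF and a digit. This gave 249 of the 1480 protein-coding genes of the chromosome and of 20176 in the annotation, and the other 1231 chromosome 19 genes served for comparison. Peaks of ZNF676 from ChIP-seq were looked up up to 1 kb from a gene's transcription start sites (TSS), in its gene body, over the 3′ exon of its canonical transcript, and within 50 kb of a TSS.

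ZNF676 carrying 3 HA epitopes was overexpressed from lentiviral vectors and precipitated with an antibody against HA in 2 established human cell lines. HEK293T, an embryonic kidney line, received a pTRE construct, was selected with puromycin and was treated with doxycycline to induce the protein. H1, an embryonic stem cell line, received a pRRL-IRES-Blast construct and was selected with blasticidin. Each line gave 3 libraries, and their peak lists held 1711, 1432 and 1257 peaks in HEK293T and 637, 576 and 495 in H1, of which 60, 54 and 46 and then 10, 10 and 8 lay on chromosome 19. The authors removed PCR duplicates in H1 only, so that cell line, vector and duplicate removal cannot be told apart. The lists hold no expression values, so neither the cell lines nor the level of ZNF676 could be checked with marker genes. The study's methods call the replicates biological, and p-values measure the spread between these libraries only.

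KRAB zinc finger proteins join an array of C2H2 fingers, which reads DNA sequence, to a KRAB domain, which recruits the corepressor KAP1 (TRIM28), the histone methyltransferase SETDB1 and HP1 proteins. Most of them bind transposable elements, and their genes lie in large clusters on chromosome 19 that arose by repeated duplication. The fingers of such a gene are usually encoded by its last exon, and ZNF274 is known to bring SETDB1 to the 3′ exons of other ZNF genes, which is why that exon was examined on its own.

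In HEK293T, 24, 17 and 17 of the 249 ZNF genes had a peak within 1 kb of a TSS in replicates 1, 2 and 3, which is 7.76% ± 1.62 (SD, n = 3). In H1 the numbers were 1, 1 and 0 genes, or 0.268% ± 0.232 (SD, n = 3). The HEK293T and H1 values did not overlap, and the mean difference of 7.50 percentage points had p = 0.1 (exact two-sided permutation test), the smallest that 3 libraries against 3 allow. Of the other chromosome 19 genes, 27, 33 and 23 had such a peak in HEK293T, or 2.25% ± 0.409, and 2 had one in each H1 library. In every HEK293T library the share was higher among ZNF genes, by 7.45, 4.15 and 4.96 percentage points (exact sign-flip permutation test, p = 0.25, the smallest that 3 libraries allow). Over the 6 libraries the mean difference was 2.81 percentage points and 5 of 6 were positive, the exception being H1 replicate 3 (exact sign-flip permutation test, p = 0.0625). The difference between ZNF and other genes was 5.41 percentage points larger in HEK293T than in H1 (exact permutation test, p = 0.1, again the smallest possible). These shares changed with the number of peaks kept, as described further on: with every list reduced to its top 495 peaks, the lines had the same mean share. That cut removes the weaker peaks, most of all from the longer HEK293T lists. List length and peak strength were therefore not separated.

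A gene was counted for a line when at least 2 of 3 libraries had a peak, the minimum used for consensus peaks in the study's methods. By this rule 17 ZNF genes (6.83%) had a peak at a TSS in HEK293T, beside 2.03% of the other chromosome 19 genes. In H1 1 ZNF gene had one, ZNF430, beside 0.162% of the other genes. With 1 HEK293T library left out, the rule asks for a peak in both others, so the count of 17 cannot rise. It was 10 without replicate 1, 14 without replicate 2 and 11 without replicate 3. Replicates 1 and 2 shared 11 ZNF genes, which is 45.8% of those of replicate 1 and 64.7% of those of replicate 2. Replicates 1 and 3 shared 14 (58.3% and 82.4%), and replicates 2 and 3 shared 10 (58.8% of each).

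**Figure D1:**
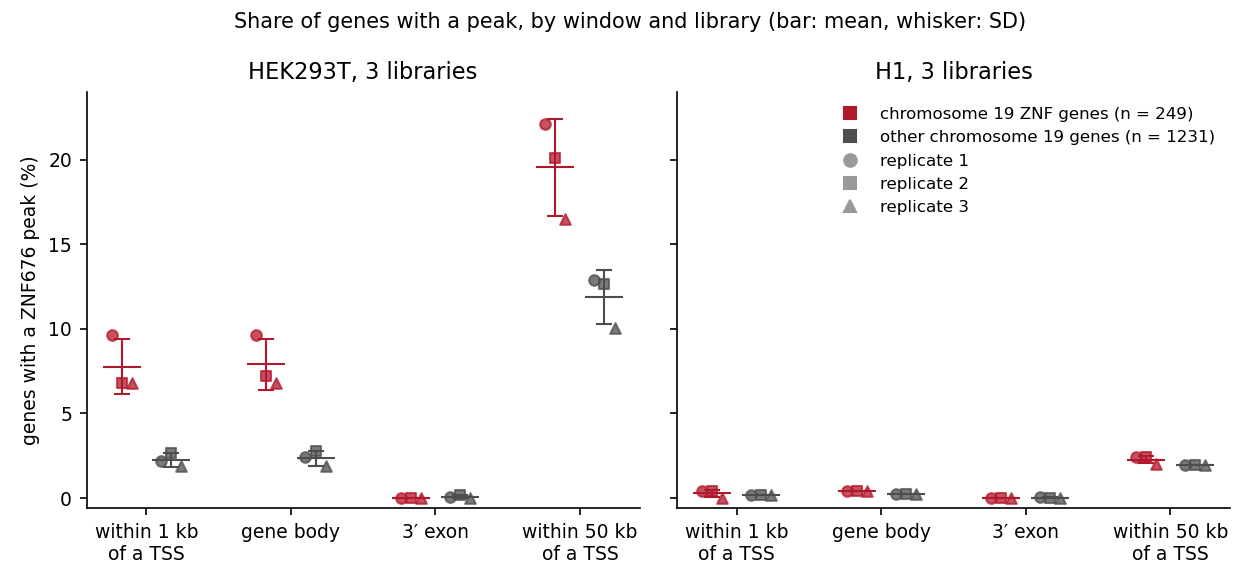
Percent of the 249 chromosome 19 ZNF genes (red) and the 1231 other protein-coding genes of the chromosome (grey) with a ZNF676 peak in each of 4 windows, per library, with the mean and SD of 3 libraries. In HEK293T the red points lie above the grey ones within 1 kb of a TSS, in the gene body and within 50 kb of a TSS, and no ZNF gene has a peak over its 3′ exon in either line.

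Set against windows of equal length, the TSS windows of the ZNF genes, which cover 1.07 Mb, held 16.2 ± 3.00 peaks per Mb in HEK293T (SD, n = 3), and those of the other chromosome 19 genes, 6.76 Mb, held 3.40 ± 0.592. Of the HEK293T peaks on chromosome 19, 35%, 29.6% and 32.6% lay at the TSS of a ZNF gene. A larger part in each library, 36.7%, 44.4% and 37.0%, lay only at the TSS of other genes, whose windows are longer in total. Of the 266 ZNF genes on other chromosomes, 4.76% ± 0.783 had a TSS peak in HEK293T, against 3.53% ± 0.504 of the 18430 other genes there, a difference of 1.24 percentage points that was positive in 3 of 3 libraries (exact sign-flip permutation test, p = 0.25). The chromosome 19 ZNF genes exceeded the ZNF genes elsewhere by 3.00 percentage points, and did so in 3 of 3 libraries (exact sign-flip permutation test, p = 0.25, the smallest possible).

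The TSS peaks of HEK293T merged into 29 regions that touched 32 ZNF genes (12.9%). Of the other chromosome 19 genes, 3.57% had a TSS peak in at least 1 HEK293T library. A peak was found in all 3 libraries for 8 of the 29 regions, in 2 for 7 and in 1 for 14. Their centres lay within 250 bp of a TSS in 24 of 29, at a median distance of 102 bp, with 15 upstream and 14 downstream of it. The regions had a median width of 267 bp and a median GC content of 63.5%. The 34 HEK293T regions only at the TSS of other chromosome 19 genes were alike, at 305 bp and 66.9%. By mean percentile of score, 5 of those 34 and 2 of the 29 stood above 50, so low ranks were not particular to ZNF genes. None of the 29 aligned to LTR12C, the endogenous retroviral promoter that the study examined as a target of ZNF676, over at least 100 bases, whereas 5 of 22 chromosome 19 regions away from any protein-coding TSS and any ZNF gene body did.

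**Figure D2:**
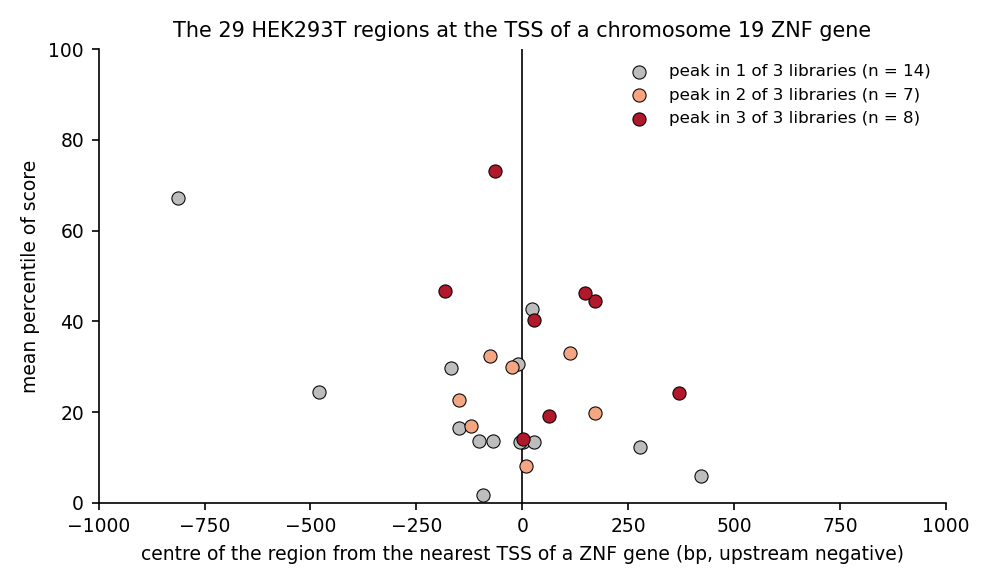
Distance of the centre of each of the 29 HEK293T regions from the nearest TSS of a ZNF gene, in bp, against the mean percentile of its score, coloured by the number of libraries with a peak. The regions gather within 250 bp of the start site, on both sides, and 27 of 29 lie below percentile 50.

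The regions with a peak in all 3 HEK293T libraries stand for 9 ZNF genes (3.61%), beside 1.14% of the other chromosome 19 genes. A stretch of each region is shown. Those of ZNF180, ZNF564 and ZNF616 lie inside the gene and outside its exons, so not all stretches are sequence upstream of a start. The stretches are the plus strand of GRCh37, limited to bases outside annotated exons of protein-coding genes, with CCAAT, the core of the NF-Y motif, or its reverse complement in capitals.
ZNF583 (chr19:56915278-56915357): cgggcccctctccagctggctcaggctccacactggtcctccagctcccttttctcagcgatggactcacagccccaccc
ZNF264 (chr19:57702646-57702725): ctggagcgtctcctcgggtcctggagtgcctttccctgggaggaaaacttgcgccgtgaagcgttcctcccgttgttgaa
ZNF180 (chr19:45004170-45004249): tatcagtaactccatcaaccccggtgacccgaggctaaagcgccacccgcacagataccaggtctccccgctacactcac
ZNF540 and ZNF571 (chr19:38085694-38085730): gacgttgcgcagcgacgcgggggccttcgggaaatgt
ZNF549 (chr19:58038613-58038692): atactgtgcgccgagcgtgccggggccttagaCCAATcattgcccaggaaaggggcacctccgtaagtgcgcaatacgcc
ZNF616 (chr19:52642589-52642668): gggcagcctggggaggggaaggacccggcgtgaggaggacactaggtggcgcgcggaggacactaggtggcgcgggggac
ZNF564 (chr19:12662064-12662143): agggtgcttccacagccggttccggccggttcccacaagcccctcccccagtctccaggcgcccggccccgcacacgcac
ZNF675 (chr19:23870023-23870068): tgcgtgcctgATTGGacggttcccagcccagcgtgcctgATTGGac
The capitals appear in ZNF549 and, in 2 places, in ZNF675. The ZNF564 region also holds CCAAT, outside the stretch shown. The ZNF675 stretch repeats a run of 16 bases directly, and the intronic ZNF616 stretch repeats a run of 20. The other 6 stretches held no direct repeat longer than 9 bases.

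Scores have no stated scale, so each peak was ranked within its own list as a percentile, with 100 the strongest. ZNF583 had the highest mean percentile among the genes with a TSS peak in all 3 libraries. Its region, chr19:56915086-56915550, spans an internal start site of the gene and had scores of 315, 567 and 682 in replicates 1, 2 and 3, or percentiles 62.7, 78.7 and 78.1. All 3 libraries placed it in the upper part of the list, and it was not found in any H1 library. ZNF264 followed with scores of 226, 127 and 244, or percentiles 55.2, 32.3 and 52.9, in a region centred 182 bp upstream of its start.

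ZNF180 had scores of 150, 206 and 182, or percentiles 40.8, 51.6 and 46.4. ZNF540 and ZNF571, which are transcribed in opposite directions, shared 1 region, chr19:38085130-38085818, with scores of 144, 195 and 177, or percentiles 38.8, 49.9 and 45.1. ZNF549 had scores of 144, 195 and 135, or percentiles 38.8, 49.9 and 32.3. These 4 genes lay between percentiles 32.3 and 51.6 in every library, and their values overlapped with those of ZNF264.

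ZNF616, with scores of 91, 133 and 124, had percentiles of 10.9, 33.9 and 27.9 in a region inside its intron, 370 bp downstream of the nearest start. ZNF564 had scores of 82, 143 and 105, or percentiles 1.81, 36.9 and 18.7. ZNF675, also known as TIZ for its inhibition of TRAF6 signalling, had scores of 113, 88 and 88, or percentiles 25.2, 8.10 and 8.67. The lowest score of any HEK293T peak was 80, and ZNF564 in replicate 1, at 82, stood close to it.

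Another 8 genes had a peak in 2 of the 3 libraries, and all of their percentiles were below 50. They were ZNF30, with percentiles 18.2 and 48.0 in replicates 1 and 2, and ZNF234, with 13.6 and 46.4 in the same libraries. ZNF527 had 33.8 and 30.9 in replicates 1 and 3, and ZNF211 had 3.51 and 41.9 there. ZNF585B and ZNF383, again a pair with opposite orientation, shared a region with 5.90 and 27.9. ZNF846 had 0.205 and 16.1 in replicates 1 and 3, and ZNF526 had 33.9 and 5.89 in replicates 2 and 3. In ZNF211, ZNF526, ZNF585B, ZNF383 and ZNF846 one of the peaks stood close to the lowest score of its list.

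**Figure D3:**
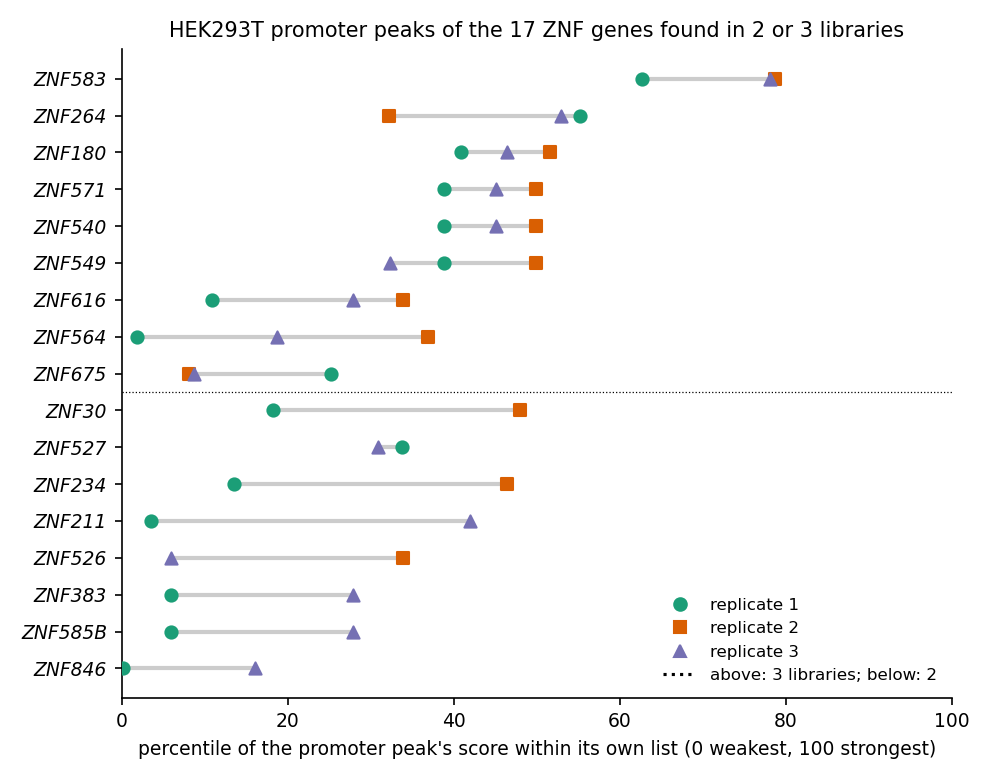
Percentile of the TSS peak's score within each HEK293T list for the 17 ZNF genes with a peak in 2 or 3 libraries, with a symbol per replicate. ZNF583 alone lies above percentile 60 in all libraries, and 14 of the 17 genes are below 50 in every library that has a peak.

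The remaining 15 genes with a TSS peak had it in 1 HEK293T library, at percentiles from 1.81 to 67.2, below 50 in 14 of them. The exception was ZNF430, described with the H1 peaks. Among the others, named after their values were seen, ZNF569 and ZNF570 shared a region at percentile 42.7 in replicate 1, and ZNF529 had 30.5 there. ZNF607 had 29.7 and ZNF536, which encodes a neuronal zinc finger repressor, had 24.4, both in replicate 2. ZNF175 at 5.90 and ZNF414 at 1.81, both in replicate 1, were the weakest.

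No gene lay between the nearest values on each side of the 1 kb limit. The farthest genes inside it, by the distance from a TSS to a HEK293T region found in at least 2 libraries, were ZNF616 at 263 bp, ZNF585B at 222 bp and ZNF526 at 74 bp. The nearest outside were ZNF329 at 1771 bp, ZNF350 at 2800 bp and ZNF875 at 8870 bp. A limit of 500 bp also gave 17 genes, and a limit of 2 kb gave 18.

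The rank of ZNF TSS peaks against those of other genes varied between libraries. In HEK293T replicate 1 their median percentile was 18.2, against 33.9 for peaks at the TSS of other chromosome 19 genes. In replicate 2 it was 33.9 against 31.2, and in replicate 3 27.9 against 15.2. The difference of −15.7, 2.67 and 12.7 changed sign between libraries, with a mean of −0.106 (exact sign-flip permutation test, p = 1, where 0.25 is the smallest possible), and without replicate 1 the mean was 7.68. In H1 the difference was 40.7 and 33.0 in replicates 1 and 2, each from a single ZNF peak, that of ZNF430.

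Within each HEK293T list, the number of ZNF genes with a TSS peak grew as weaker peaks were added. Among the 495 strongest peaks of each list, the length of the shortest list, 0, 1 and 1 ZNF genes had a TSS peak in HEK293T and 1, 1 and 0 in H1. Among the 750 strongest, 2, 6 and 6 did in HEK293T, and among the 1250 strongest 11, 16 and 17 did, fewest in replicate 1, which has the longest list. The other chromosome 19 genes went from 2, 6 and 4 of 1231 at 495 peaks to 17, 28 and 21 at 1250. The lowest score kept at 495 peaks was 486, 322 and 317 in HEK293T and 214, 169 and 85 in H1. The cut thus changes the list length and the weakest score kept together, and their parts were not tested. With equal list lengths of 495, the difference between HEK293T and H1 in the share of ZNF genes was 0 (exact permutation test, p = 1). The difference between ZNF and other genes in HEK293T became −0.0572 percentage points. In the strongest 50% of each HEK293T list it was 0.287 percentage points, and 2 ZNF genes were left with a TSS peak in at least 2 libraries.

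**Figure D4:**
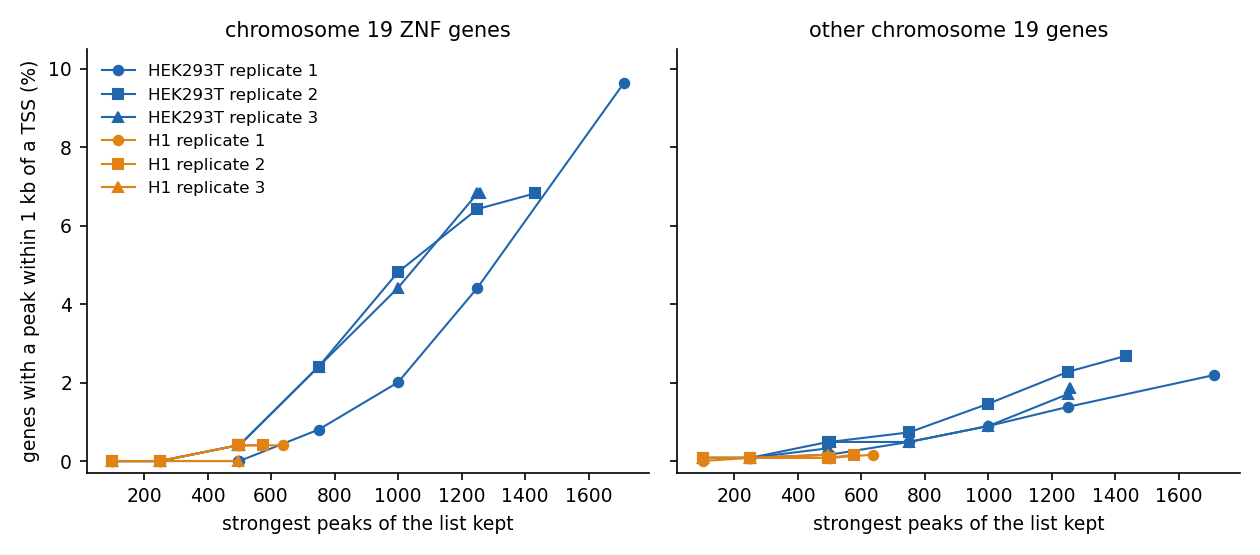
Percent of chromosome 19 ZNF genes (left) and of other chromosome 19 genes (right) with a peak within 1 kb of a TSS, against the number of strongest peaks kept from each list, for the 6 libraries. Up to 495 peaks at most 1 ZNF gene is reached in any library of either line, and the HEK293T curves rise to between 6.83% and 9.64% only with the weaker peaks.

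In gene bodies, 24, 18 and 17 ZNF genes had a peak in HEK293T, or 7.90% ± 1.52 (SD, n = 3), and 1 in each H1 library, or 0.402%. By the rule of 2 libraries, 17 ZNF genes had one in HEK293T, beside 2.11% of other chromosome 19 genes, and 1 in H1, beside 0.244%. The share was higher among ZNF genes in 6 of 6 libraries, by 2.85 percentage points on average (exact sign-flip permutation test, p = 0.031, the smallest possible). The 3 H1 differences were the same 0.158 percentage points and rest on 1 ZNF gene, ZNF350. With lists of 495 peaks the mean was 0.0639 (exact p = 0.5625), and with only the upper 50% of the peaks by score it was 0.0894 (exact p = 0.46875), neither past the threshold. Without peaks within 1 kb of any protein-coding TSS the mean difference was 0.265 percentage points (exact sign-flip permutation test, p = 0.0625). Away from the TSS of a ZNF gene, 2 ZNF genes had a HEK293T peak in the gene body. One was ZNF473, a component of the machinery that processes histone transcripts, in replicate 1 only, and the other was ZNF350.

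Over the 3′ exon, 0 of 249 ZNF genes had a peak in any of the 6 libraries. These exons have a median length of 3293 bp and together cover 0.908 Mb. Among other chromosome 19 genes 0.0812% reached 2 HEK293T libraries and 0% reached 2 H1 libraries, so the count of 0 is not apart from the background. The authors removed reads with a mapping quality under 10, and the finger exons of near relatives are similar to each other. The part of this filter in the count of 0 was not tested.

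ZNF676 itself, and ZNF728 in the same cluster, had no peak in any window in any library. The nearest HEK293T region found in at least 2 libraries lay 1471210 bp from a TSS of ZNF676 and 683835 bp from one of ZNF728.

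Within 50 kb of a TSS, 55, 50 and 41 ZNF genes had a peak in HEK293T, or 19.5% ± 2.85 (SD, n = 3), and 6, 6 and 5 in H1, or 2.28% ± 0.232. In HEK293T 43 ZNF genes had one in at least 2 libraries (17.3%), beside 11.8% of other chromosome 19 genes, and in H1 6 did, beside 1.95%. The share was higher among ZNF genes in 6 of 6 libraries, by 3.99 percentage points on average (exact sign-flip permutation test, p = 0.031). The differences were 9.17, 7.41 and 6.39 percentage points in HEK293T, but 0.460, 0.460 and 0.0584 in H1. The H1 values rest on the same few regions, so their signs add little. Within either line alone the exact sign-flip p was 0.25. In the strongest 50% of each list the 6-library mean turned to −0.727 percentage points, with p = 0.031 again (exact sign-flip permutation test). With lists of 495 peaks it was −0.143 (exact p = 0.84375). Since ZNF genes are close neighbours, 19 regions accounted for the 43 genes, and up to 5 genes lay near 1 region. Of the 26 genes reached only at this distance, 20 lay near a region at the TSS of another ZNF gene. By the distance from a TSS to a HEK293T region found in at least 2 libraries, ZNF551 at 48825 bp, ZNF805 at 49104 bp and ZNF772 at 49593 bp were the farthest inside 50 kb, and ZNF416 at 51164 bp, ZNF229 at 51340 bp and ZNF614 at 56284 bp the nearest outside. With a limit of 10 kb, ZNF minus other genes was still positive in HEK293T, at 4.48 percentage points. In all, 172 of the 249 genes had no peak in any window in any library. A peak within 50 kb of a TSS in at least 1 HEK293T library was found for 30.9% of ZNF genes. Among other chromosome 19 genes this share was 17.6%.

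In H1 the 6 genes came from 3 regions, and all 3 had a counterpart in HEK293T. These were the only sites within 50 kb of a ZNF gene TSS found in both lines. A stretch of the ZNF350 region is shown because it was the only one of them inside a ZNF gene.
ZNF350 (chr19:52475089-52475168): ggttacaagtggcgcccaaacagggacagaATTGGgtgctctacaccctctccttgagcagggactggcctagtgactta
CCAAT, in reverse, is marked in capitals.

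The ZNF430 region, 818 bp upstream of its start, had a GC content of 0.907%. It had scores of 463 and 303 in H1 replicates 1 and 2, or percentiles 45.2 and 35.8, and no peak in replicate 3. In HEK293T it had a score of 384, percentile 67.2, in replicate 1 only.

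The ZNF350 region, chr19:52474953-52475306 in HEK293T, lies in an intron of the gene, 2977 bp downstream of the nearest TSS. ZNF350, also called ZBRK1, is a KRAB zinc finger repressor that binds BRCA1. Its region was found in all 6 libraries, with scores of 358, 123 and 114 in HEK293T and 219, 242 and 165 in H1. The percentiles were 64.9, 29.7 and 23.6 in HEK293T and 23.3, 26.5 and 19.2 in H1, so the lines overlapped. It did not align to LTR12C and had a GC content of 45.8%. ZNF613 and ZNF615 were reached within 50 kb through the same region.

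The third region lies with its nearer edge 1771 bp upstream of a ZNF329 start and within 50 kb of ZNF274. It was the only region within 50 kb of a ZNF gene that aligned to LTR12C, over 298 bases at 76.8% identity. It was also the strongest there, with scores of 2096, 1064 and 1404 in HEK293T, or percentiles 94.4, 91.6 and 92.1. In H1 its scores were 1411, 954 and 528, or percentiles 81.9, 77.6 and 64.3. No TSS region of a ZNF gene reached these percentiles in HEK293T.

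Grouped into clusters in which neighbouring ZNF genes lie within 250 kb of each other, the 249 genes formed 25 clusters, 11 of them with a single gene. A TSS peak in at least 2 HEK293T libraries occurred in 10 clusters. The cluster from ZNF565 to ZNF573, chr19:36673178-38307940, held 26 genes, of which 5 (19.2%) had such a peak and 9 (34.6%) had one in any library. In that cluster 2 regions were shared by a pair of genes each in the first count, so that its 5 genes rest on 3 regions. The cluster from ZNF264 to ZNF446, with 43 genes, had 3 (6.98%), and that from ZNF175 to ZNF331, with 40 genes, had 1 (2.5%). The cluster that holds ZNF676 and ZNF728, with 29 genes, had 1, ZNF675 (3.45%). Clusters were not compared by a test, since their genes are not replicates.

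**Figure D5:**
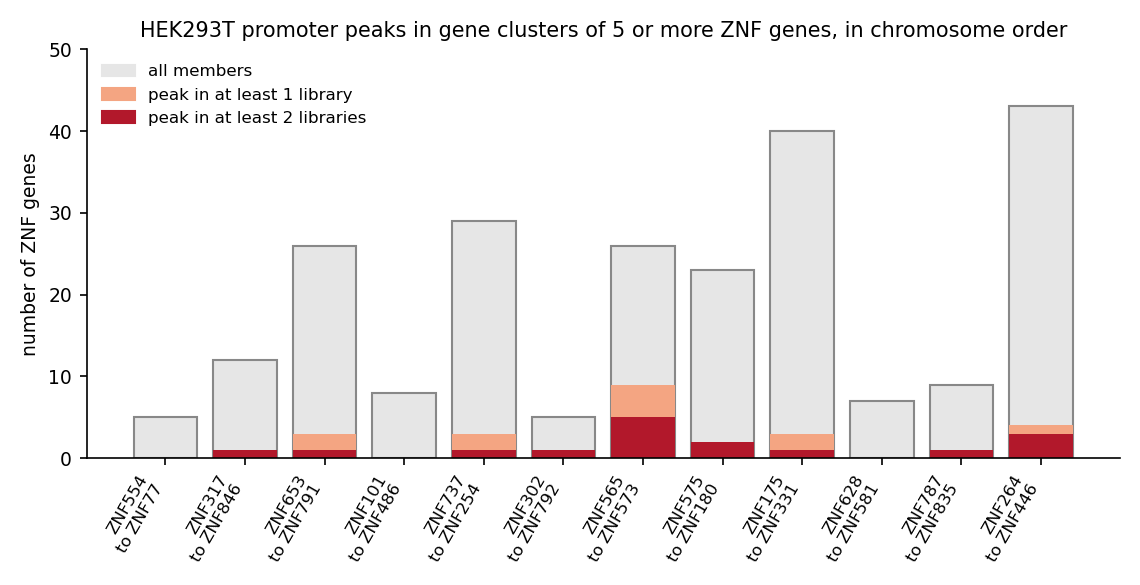
Number of ZNF genes in each chromosome 19 cluster of 5 or more, in chromosome order and named by the first and last gene, with the numbers that had a TSS peak in at least 1 and in at least 2 HEK293T libraries. The cluster from ZNF565 to ZNF573 has 9 of 26 and 5 of 26, and no other cluster drawn has more than 4.

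Of the 249 genes, 69 had a start site of another gene on the opposite strand within 1 kb of their canonical start. Of the 69, 6 (8.70%) had a TSS peak in at least 2 HEK293T libraries, against 11 of the 180 others (6.11%). With a peak in at least 1 library the counts were 13 (18.8%) and 19 (10.6%). Neither contrast was tested. A literal search for the KRAB A box in the canonical protein found it in 10 of the 17 genes with a peak and in 133 of all 249. A wider pattern, chosen after seeing these counts, found it in 10 and 157. Both patterns miss KRAB domains with other letters. The genes with a peak encoded between 11 and 22 C2H2 fingers by pattern, with a median of 13, against a median of 12 in all 249.

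RefSeq promoters, from 250 bases before to 50 after the start on GRCh38.p14, were matched by symbol for 218 of the 249 genes and for 14 of the 17. The median number of CpG was 23 in the 14 and 20 in the 218. Each motif was searched as letters on both strands. The ETS motif CCGGAAG was present in 45.4% of ZNF promoters and 13.0% of those of other chromosome 19 genes. It was in 14.2% of all protein-coding promoters and in 10.7% of all promoters, coding or not. In the same order, CCAAT was present in 54.1%, 37.5%, 36.4% and 35.7%, and the SP/KLF motif GGGCGG in 67.9%, 66.5%, 58.5% and 44.6%. These promoters were matched by gene and not by the position of the peak, which for some genes lies at another start. Among the 14 genes with a HEK293T peak, CCGGAAG was in 50%, CCAAT in 50% and GGGCGG in 35.7%, beside 46.6%, 55.0% and 71.4% of the 189 genes without one. None of these contrasts was tested, and of the 8 peak regions with all 3 libraries themselves, 4 held GGGCGG. Among the same regions, CCGGAAG was in those of ZNF180, ZNF264, ZNF549 and ZNF675, and CCAAT in those of ZNF549, ZNF564 and ZNF675. The YY1 motif AAGATGGCG was in 2 of the 14, ZNF585B and ZNF383, which share a region, the NRF1 motif GCGCATGCG in 1 and the CREB motif TGACGTCA in 0, beside 3.67%, 2.75% and 3.21% of the 218. A match of letters is a description of the promoter and does not show that a factor binds there.

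Of 20 genes of the KRAB and KAP1 pathway, on any chromosome, 18 had no TSS peak in any library. Over all 20176 genes, 5.49% had one in at least 1 of the 6 libraries. In HEK293T 5.44% had one in at least 1 library and 3.16% in at least 2, and in H1 0.243% and 0.144% did, so that a list of 20 genes is too short to be read against these shares. CBX1, which encodes HP1β, had a peak in 3 of 3 HEK293T libraries, at percentiles 72.4, 73.6 and 68.3, and in no H1 library. TRIM28, which encodes KAP1 and lies beyond the last ZNF cluster of chromosome 19, had a peak in 1 HEK293T library, at percentile 34.9. In H1 it had one in 3 of 3 libraries, at percentiles 4.55, 2.78 and 1.41, which are among the weakest peaks of those lists. These TRIM28 peaks lie over exons at internal transcript starts, and none was within 1 kb of its canonical start. SETDB1, CBX3, CBX5, the DNA methyltransferase gene DNMT1 and the HUSH complex genes TASOR, MPHOSPH8 and PPHLN1 were among the 18.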

How the data were processed

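ZNF676 ChIP-seq peak lists of 3 HEK293T and 3 H1 immunoprecipitated libraries were used, and the input of each line was not analysed here. Following the study's methods and the submitters' processing notes, the authors mapped reads to hg19 with Bowtie2, removed reads with mapping quality under 10 and those in blacklisted or high-input regions, and called peaks with MACS2. Picard marked duplicates for removal in H1. Each deposited list gives positions, a name and the authors' score, whose scale is not stated, so scores were only ranked within a list. The study's methods give a single approximate depth for its ChIP-seq samples, and the reads left after filtering are not in the lists, which held 495 to 1711 peaks. Removal of poorly mapped reads lowers signal in near-identical gene copies and repeats.

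Positions were checked against GRCh37 (0 peaks beyond a chromosome end), counted from 1, and overlapped by at least 1 bp with windows from GENCODE release 44 lifted to GRCh37. For each library the share of genes with a peak was computed, and libraries, not genes, were compared with exact permutation tests. The members and lists were chosen with earlier results of these data known. Genes named in the text were those with a TSS peak in at least 2 libraries of a line, ordered by the number of libraries and mean percentile, those with a 3′ exon peak, ZNF676, ZNF728 and the 3 on each side of the 1 kb limit. Others, such as ZNF473 and the genes within 50 kb in H1, were named after their values were seen. LTR12C-like means that blastn aligned at least 100 bases, with an E-value of at most 1e-10, to the LTR12C element located by the study's cloning primers. Repeat annotation was not used. The sequences of the regions near ZNF430 and ZNF329 are not reported here. KRAB and finger patterns were read from translations of the canonical transcripts, and promoters from RefSeq. Overlap counts were tested on simulated data and were identical to those of bedtools 2.31.1. Python 3.11.15, numpy 2.4.6, scipy 1.17.1, matplotlib 3.10.9 and blastn 2.17.0 were used. Alternatives covered window sizes, the choice of TSS and exon, score and list length, overlap, comparison genes, each library left out and the pairing of replicate numbers.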

Additional observations from a re-analysis of the deposited data

How the results depend on the processing

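Of 218 values under an alternative, 173 kept their direction, side of the threshold and, for counts, a size within 1.5 times. For exact tests the smallest possible p was 0.25 within a line and 0.1 between lines. Those tests could not change their side of the threshold. Differences that shrank without changing sign were thus counted as kept. With the strongest 50% of peaks, HEK293T minus H1 in the ZNF share at a TSS fell from 7.50 to 0.937 percentage points. ZNF minus other genes in HEK293T at a TSS then fell from 5.52 to 0.287 percentage points. With equal lists of 495 peaks, HEK293T minus H1 in the share of ZNF genes was 0 at a TSS, −0.134 in the gene body and −0.803 percentage points within 50 kb. ZNF minus other genes in HEK293T was then −0.0572, −0.111 and −1.05 (TSS, gene body, 50 kb), its difference between the lines at a TSS −0.217, and the 6-library means 0.0639 (gene body, p = 0.5625, exact) and −0.143 (50 kb). The 3′ exon differences were 0 in HEK293T, H1 and both together, and 1 gene had a TSS peak in at least 2 HEK293T libraries.

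In the strongest 50% of each list, ZNF minus other genes was −0.0812 (TSS and gene body) and −0.334 (50 kb) in H1, −1.12 in HEK293T within 50 kb, and −0.727 (50 kb) and 0.0894 (gene body, p = 0.46875, exact) over 6 libraries. The H1 3′ exon value was 0, as it was with at least 50% of the peak required, and 2 genes remained at a TSS in 2 libraries. In H1 the TSS difference was −0.162 with 500 bp. The 6-library TSS mean was 3.09 with 2 kb (exact p = 0.031), and the gene-body mean 0.265 without TSS peaks (exact p = 0.0625). The percentile difference, which has no stable sign, was 1.40 with 500 bp and 0.0322 without other zinc finger names.

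Leaving out 1 library, the 6-library means ranged from 1.98 to 3.39 (gene body) and from 2.96 to 4.78 (50 kb), each with exact p = 0.0625, the smallest that 5 libraries allow. The percentile difference ranged from −6.50 to 7.68, the H1 3′ exon difference from −0.0406 to 0, and the count of 17 genes from 10 to 14. With a peak in at least 1 library it was 32, and in all 3 it was 9, both chosen after seeing the data.

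Replicate numbers were shared by the labels of both lines. Deviations of same-numbered libraries over the ZNF genes within 50 kb correlated at 0.209, −0.0872 and 0.113. The H1 libraries had 6, 6 and 5 such genes and differed only in ZNF430. These correlations therefore cannot show whether the numbers pair the libraries, and the main tests took no pairing. With the replicate block the differences at a TSS stayed 7.50 and 5.41 percentage points (exact sign-flip p = 0.25, the smallest possible). Neither the blocked nor the main permutation test can pass the threshold with these libraries, so no call could change. The lists do not give the reads each library kept after filtering, which limits any comparison of weak peaks between lines.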
